A study of Trichoderma reesei with 6 samples.

Results

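The genes described here are 96 weakly transcribed genes of the cellulase-producing fungus *Trichoderma reesei* whose transcripts were more abundant in the Δ*gul1* strain than in the reference strain QPP, out of 9113 genes in the expression table. They were selected on the deposited expression values themselves. A gene was taken if its mean in Δ*gul1* was at least 0.5 and below 5 FPKM (fragment counts relative to the length of the gene and the depth of the library), if that mean was at least 2.3 times the QPP mean, and if every Δ*gul1* library lay above every QPP library. Chitinase genes named chi18 and TRIREDRAFT_66789 were left out by name, which removed 1 gene. Since the difference between the strains chose these genes, their levels and differences are given as a description with no test.

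The Δ*gul1* strain is 1 transformant in which the major part of *gul1* was replaced by the *Aspergillus niger* *pyrG* marker gene. QPP received the same marker at a random site of the genome. Both were made from QP4, a uracil auxotroph of the QM9414 lineage that lacks *pyr4*, so both strains carry that deletion and the marker. Each strain was grown as 3 cultures, first for 36 hr in minimal medium with 2% glucose and then for 48 hr at 30 °C in medium with 1% cellulose, and polyadenylated RNA of the filtered mycelia was sequenced. One transformant per strain was used, so the effect of the deletion and that of a difference between transformants cannot be told apart.

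GUL1 is a putative mRNA-binding protein related to Ssd1 of *Saccharomyces cerevisiae*. In yeast, Ssd1 binds a set of mRNAs, many of them for cell wall proteins, and controls where and when they are translated, under phosphorylation by the kinase Cbk1. In *Neurospora crassa* the related protein works with the kinase COT-1 in hyphal growth and cell wall integrity. A filamentous fungus keeps its wall, made of β-glucans, chitin and mannoproteins, under constant remodeling, with glucanases that cut β-1,3-glucan and mannosyltransferases that add mannose to proteins and lipids.

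The libraries held 17654286 to 20652886 fragments in Δ*gul1* and 18877793 to 21659230 in QPP, the totals by which the FPKM were scaled. The *gul1* transcript was at 0.979, 0.581 and 0.746 FPKM in the Δ*gul1* libraries, against 86.9, 82.4 and 79.9 FPKM in the QPP libraries, as the labels say. The deposited FPKM are not scaled between libraries, and the median gene was at 31.9 to 32.8 FPKM in Δ*gul1* and at 28.7 to 29.5 FPKM in QPP. In the same direction, 3599 of the 9006 genes above 0 FPKM (40.0%) had every Δ*gul1* library above every QPP library as deposited. The effect of this shift on the choice was measured by applying the rule to scaled values. After division by median-of-ratios size factors (1.05 to 1.07 in Δ*gul1* and 0.931 to 0.965 in QPP), 63 genes met the same rule, 62 of them among the 96.

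Of the 1061 genes with a Δ*gul1* mean of 0.5 to 5 FPKM, 97 (9.14%) met the rule before the exclusion. The mirrored rule, with QPP as the higher strain, was met by 38 of 1121 genes (3.39%). As deposited, the genes higher in Δ*gul1* were therefore 71.6% of those chosen in either direction. After size-factor scaling they were 56.8%, at 63 against 48 genes, and after upper quartile scaling 53.1%, at 60 against 53 genes. The excess in the Δ*gul1* direction was thus much smaller once the libraries were scaled to each other. As deposited, 711 of the 1061 genes (67.0%) in this range were higher on average in Δ*gul1*, with a median ratio of means of 1.20. The 711 include the genes that met the rule. All genes tested leaned the same way, with a median log2 fold change of 0.14 on FPKM as deposited.

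**Figure D1:**
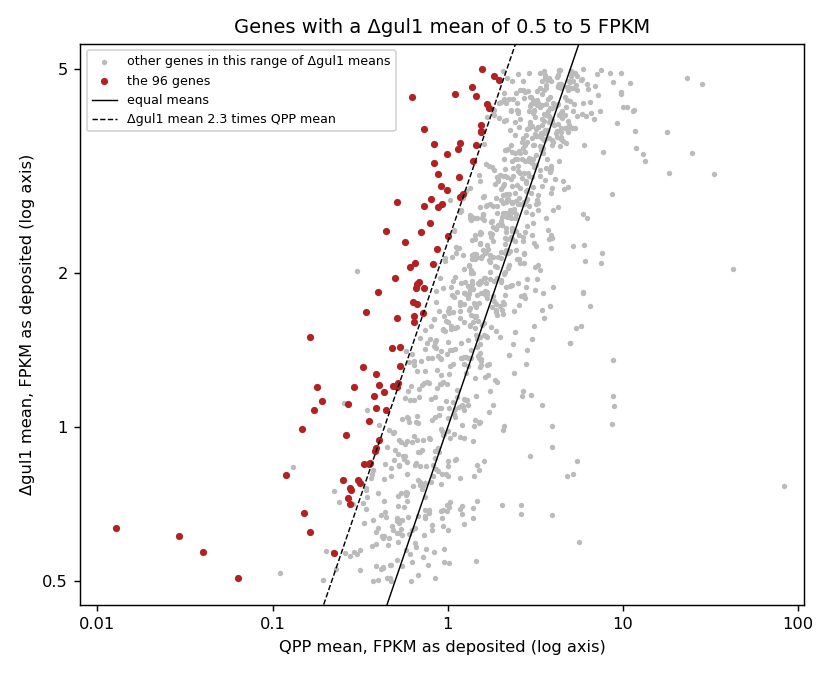
Mean FPKM as deposited in Δ*gul1* (vertical, log axis) against QPP (horizontal, log axis) for the 1061 genes with a Δ*gul1* mean of 0.5 to 5 FPKM; each point is a gene and the 96 genes are in red. All red points lie above the dashed line at a ratio of 2.3, which the rule fixed, and most lie close to it. The grey point farthest to the right is *gul1*, at 83.1 FPKM in QPP.

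Within the 96 genes, Δ*gul1* means ran between 0.508 and 4.99 FPKM with a median of 1.71, and QPP means between 0.0128 and 1.96 FPKM with a median of 0.534. In Δ*gul1*, 23 genes averaged below 1 FPKM, 33 between 1 and 2, 18 between 2 and 3, and 22 at 3 or more. In QPP, 43 genes averaged below 0.5 FPKM and 19 at 1 FPKM or more. The ratio of means after size-factor scaling, used for the ratios of single genes unless a ratio of depth-scaled fragments is named, had a median of 2.64 and ran between 2.07 and 45.2. Most genes were near the lower end. There were 41 genes below 2.5, 22 between 2.5 and 3, 16 between 3 and 4, 6 between 4 and 5, 8 between 5 and 10 and only 3 above 10.

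Summed over the 96 genes, the transcripts came to 196, 201 and 194.5 FPKM in the 3 Δ*gul1* libraries, against 63.2, 66.7 and 61.7 FPKM in the QPP libraries. In fragments, the sums were 5558, 5103 and 5206 in Δ*gul1* and 1811, 2098 and 1635 in QPP. All 96 genes together were thus a very small part of each library. The rule required every Δ*gul1* library to be the higher, so the order of these sums was fixed by the choice. In bulk samples such as these, fewer cells with a transcript and less of it per cell cannot be told apart.

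**Figure D2:**
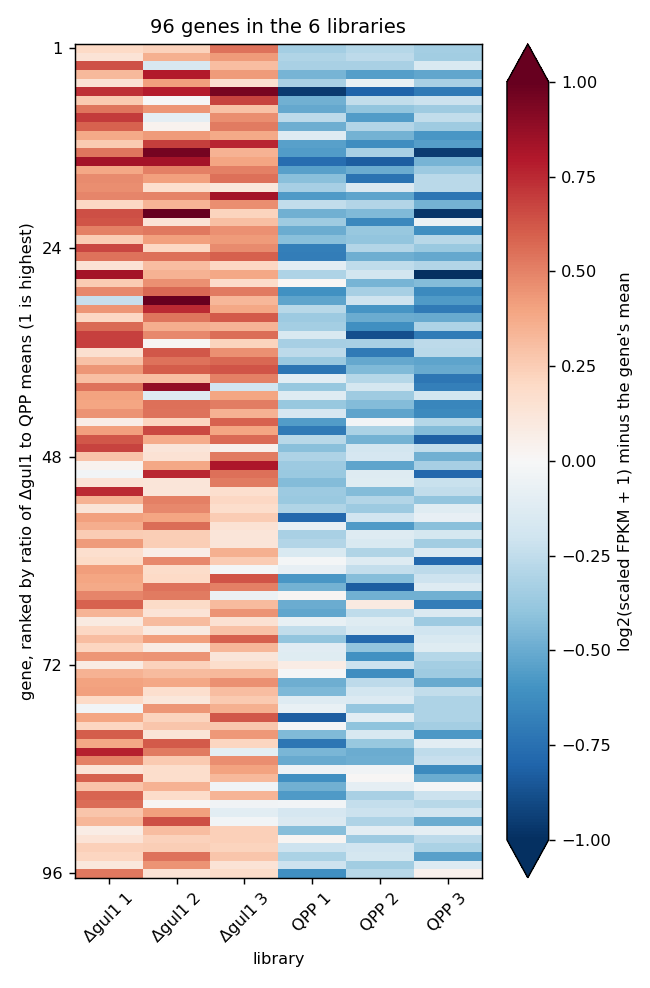
Each row is 1 of the 96 genes, ranked by the ratio of Δ*gul1* to QPP means, and each column a library; color gives log2 of scaled FPKM plus 1 minus the gene's mean over the 6 libraries, with the scale ending at 1 in either direction. The Δ*gul1* columns are mostly red and the QPP columns mostly blue, as the rule requires, with single strong cells such as Δ*gul1* replicate 2 of TRIREDRAFT_122998 at 4.96 FPKM.

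The annotation given by the study named a function for 4 of the 96 genes, all of them acting on or binding carbohydrates. It comes with the study's list of genes differing between the strains, chosen on these same libraries. That list holds 80 of the 96, so the others could not be named from it. The same contrast chose both the list and the 96, so nothing is read from this overlap. The share of such functions among all genes it annotates was not counted, so no theme is read from these 4. TRIREDRAFT_108776 encodes a β-1,3-glucanase, an enzyme that cuts the main glucan of the fungal wall. It was at 3.10, 4.12 and 3.02 FPKM in Δ*gul1*, against 1.31, 0.911 and 0.743 FPKM in QPP. The lowest Δ*gul1* library was more than 2 times the highest QPP library, and the ratio of scaled means was 3.08. With 445 fragments in Δ*gul1* and 137 in QPP it was also among the 5 genes with the most fragments.

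TRIREDRAFT_66888 encodes an α-1,3-mannosyltransferase of glycosyltransferase family 71, a family whose yeast members add α-1,3-linked mannose to protein glycans. Its levels in Δ*gul1* were 2.97, 3.26 and 3.15 FPKM, against 0.750, 1.15 and 0.727 FPKM in QPP. The 3 Δ*gul1* cultures were close to each other, with an SD of 0.143 FPKM around a mean of 3.13, and the ratio was 3.21. TRIREDRAFT_121136, a putative glycosyl hydrolase, was at 1.83, 2.57 and 2.82 FPKM in Δ*gul1*, against 0.794, 0.664 and 0.642 FPKM in QPP, a ratio of 3.08. TRIREDRAFT_111094 carries a carbohydrate-binding module of family CBM13, a sugar-binding fold also found in ricin-type lectins. Its Δ*gul1* libraries spread more widely, at 1.77, 2.56 and 3.85 FPKM, against 0.968, 0.796 and 1.03 FPKM in QPP, a ratio of 2.62. In all 4 genes the QPP libraries lay at or below 1.31 FPKM.

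The study's annotation lists more β-1,3-glucanase genes beside TRIREDRAFT_108776 and more glycosyltransferase genes beside TRIREDRAFT_66888. The glycosyltransferase genes are not 1 family, and none of the others is annotated as family 71. The study chose its list on these same libraries, so these genes are not independent evidence. Of the 8 β-1,3-glucanase genes listed, 4 were called higher by limma and 2 lower, beside 168 of all 9006 genes (1.87%) called higher. The share of all genes called lower was not counted. The fitted log2 fold changes of the 8 had a median of 1.02 beside 0.01 for all genes tested. TRIREDRAFT_108776 was the only one of the 8 within the 96, and the others called higher were far more abundant, for example TRIREDRAFT_124175 at 1000.1 ± 92.7 FPKM in Δ*gul1* and 386 ± 79.8 FPKM in QPP (SD, n = 3 each). TRIREDRAFT_66792 went the other way, at 199 ± 21.2 FPKM in Δ*gul1* and 479 ± 23.9 FPKM in QPP (SD, n = 3 each). Of the 5 glycosyltransferase genes, 4 were called higher and 1 lower, with a median log2 fold change of 1.05. TRIREDRAFT_66888 was the only one of them within the 96. The same contrast chose the study's list, so nothing is read from the calls in either group. None of the 96 was among the 86 predicted GPI-anchored proteins, which sit in the membrane or wall and make up only 0.944% of all genes, so nothing is read from this 0.

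Spore formation would bring cells other than vegetative hyphae into a mycelium, and 3 conidiation genes were read beside the 96. The gene of *brlA*, the regulator that starts conidiophore development in *Aspergillus*, was lower in Δ*gul1*, at 590, 656 and 599 FPKM, against 1263, 1100 and 1085 FPKM in QPP (log2 fold change −1.06). The gene of *wetA*, a later regulator of spore maturation, was at 17.0 ± 2.65 FPKM in Δ*gul1* and 7.47 ± 1.50 FPKM in QPP (SD, n = 3 each), a log2 fold change of 0.95 that did not pass the fold threshold. The cell wall protein gene of PhiA, needed for phialides in *Aspergillus*, was higher in Δ*gul1*, at 3424, 2850 and 2915 FPKM, against 967, 965 and 719 FPKM in QPP. Of the list, 1 gene was thus higher, 1 lower and 1 not called, and none of the 3 was at 0 in any library. Their summed level was 3525 to 4029 FPKM in Δ*gul1* and 1809 to 2238 FPKM in QPP. Most of the sum in Δ*gul1* was PhiA, while *brlA*, the larger part in QPP, went the other way. The sum therefore gives no common direction for the list. The part of conidiation in the levels of the 96 genes was not tested.

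The gene with the highest ratio was TRIREDRAFT_112491, which was close to absent in QPP. Its levels were 0.483, 0.518 and 0.903 FPKM in Δ*gul1*, against 0, 0.0384 and 0 FPKM in QPP. These values rest on 12, 11 and 21 fragments in the Δ*gul1* libraries and on a single fragment, in replicate 2, over the 3 QPP libraries. Depth-scaled fragments are pooled fragments divided by the summed library totals, each total first multiplied by its size factor. Their ratio was 41.5 with a 95% counting interval of 7.06 to 1674 (exact Clopper-Pearson interval of the share of pooled fragments). Intervals of this kind cover counting error only, not the spread between cultures, and PCR copies of 1 molecule count as separate fragments. The 1203 bases of this gene were counted over its whole length.

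TRIREDRAFT_73344 followed, at 0.416, 0.660 and 0.761 FPKM in Δ*gul1*, against 0.0306, 0.0566 and 0 FPKM in QPP. It had 57 fragments in Δ*gul1* and 3 in QPP, and the interval of its ratio of depth-scaled fragments, 5.82 to 89.4 around 17.9, spanned more than a factor of 10. The next, TRIREDRAFT_105222, had a scaled ratio of 12.7 but only 15 fragments in Δ*gul1*, at 9, 1 and 5 per library, against 0, 0 and 1 in QPP. Its lowest Δ*gul1* library, 0.129 FPKM, was barely above the highest QPP library, 0.121 FPKM, and after scaling the libraries overlapped.

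A clearer separation was seen for TRIREDRAFT_1927, a gene of 639 counted bases. It was at 4.02, 4.25 and 4.94 FPKM in Δ*gul1*, against 0.469, 0.650 and 0.746 FPKM in QPP. The fragments were 53, 48 and 61 in Δ*gul1*, against 6, 9 and 9 in QPP, which gave a ratio of depth-scaled fragments of 6.36 with an interval of 4.13 to 10.2. Its log2 fold change after adding 1 to the scaled FPKM, 1.64 (SE 0.11), was the highest of the 96 on that scale. TRIREDRAFT_107526 was at 1.15, 2.02 and 1.33 FPKM in Δ*gul1*, against 0.198, 0.137 and 0.157 FPKM in QPP. Its QPP cultures had 4, 3 and 3 fragments, and the ratio was 8.17.

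The other 4 of the 8 genes with the highest ratios among those with at least 30 Δ*gul1* fragments had ratios between 5 and 6.1. TRIREDRAFT_106444 was at 1.36, 1.23 and 1.01 FPKM in Δ*gul1*, against 0.108, 0.200 and 0.229 FPKM in QPP. TRIREDRAFT_112147 was even between the Δ*gul1* cultures, at 1.09, 1.17 and 1.12 FPKM, but not between the QPP cultures, at 0.404, 0.124 and 0.0476 FPKM. The other 2 had 1 Δ*gul1* library well below its partners. In TRIREDRAFT_68950 the Δ*gul1* levels were 1.45, 0.405 and 1.11 FPKM, against 0.214, 0 and 0.227 FPKM in QPP. In TRIREDRAFT_109967 they were 1.37, 0.599 and 1.28 FPKM, against 0.0880, 0.244 and 0.187 FPKM in QPP. In both genes Δ*gul1* replicate 2, the library with the fewest fragments, was the low one. No function is given for any of these 8 genes.

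**Figure D3:**
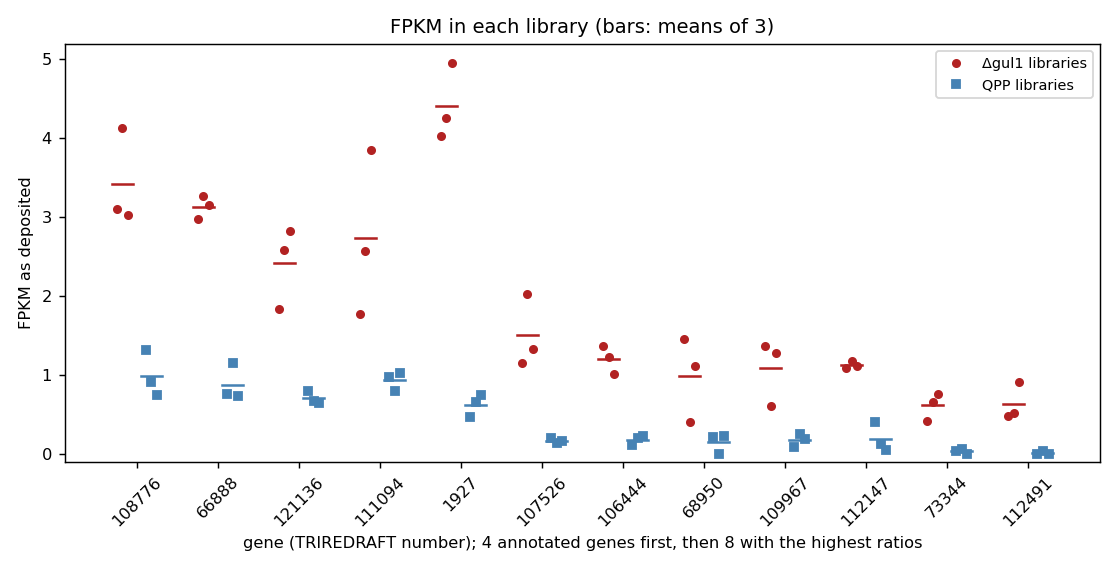
FPKM as deposited in each library (points) with the mean of 3 libraries (bars), Δ*gul1* in red to the left of QPP in blue, for the 4 annotated genes and the 8 with the highest ratios among genes with at least 30 Δ*gul1* fragments. TRIREDRAFT_1927 stands highest, at 4.02 to 4.94 FPKM in Δ*gul1*, and TRIREDRAFT_112491 lowest in QPP, with 0 FPKM in 2 of 3 libraries.

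The depth behind the values differed widely. Over the 3 libraries of a strain, a gene had between 7 and 1537 fragments in Δ*gul1* (median 106) and between 1 and 708 in QPP (median 37.5). Above 100 fragments in Δ*gul1* were 50 genes, and 5 had fewer than 30. In QPP, 12 genes had 10 fragments or fewer and 5 had 3 or fewer, namely TRIREDRAFT_112491, TRIREDRAFT_73344, TRIREDRAFT_105222, TRIREDRAFT_112037 and TRIREDRAFT_111252. At least 1 QPP library was at 0 in 6 genes, but no gene was at 0 in all 3, so none of the 96 was undetected in QPP. For a gene of 1000 bases, 3 fragments correspond to 0.145 to 0.170 FPKM in the Δ*gul1* libraries and to 0.139 to 0.159 FPKM in the QPP libraries, the level that a count of 0 still allows.

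Taken by counting alone, the interval of the ratio lay above 1 for 95 of the 96 genes and above 2 for 37. The exception was TRIREDRAFT_112037, a gene of 243 counted bases with 2, 3 and 2 fragments in Δ*gul1*, against 0, 1 and 0 in QPP, whose interval began at 0.847. A higher level in Δ*gul1* was therefore not detectable for this gene at this depth. The rule itself selected high ratios, so the number of intervals above 1 is a description of precision.

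**Figure D4:**
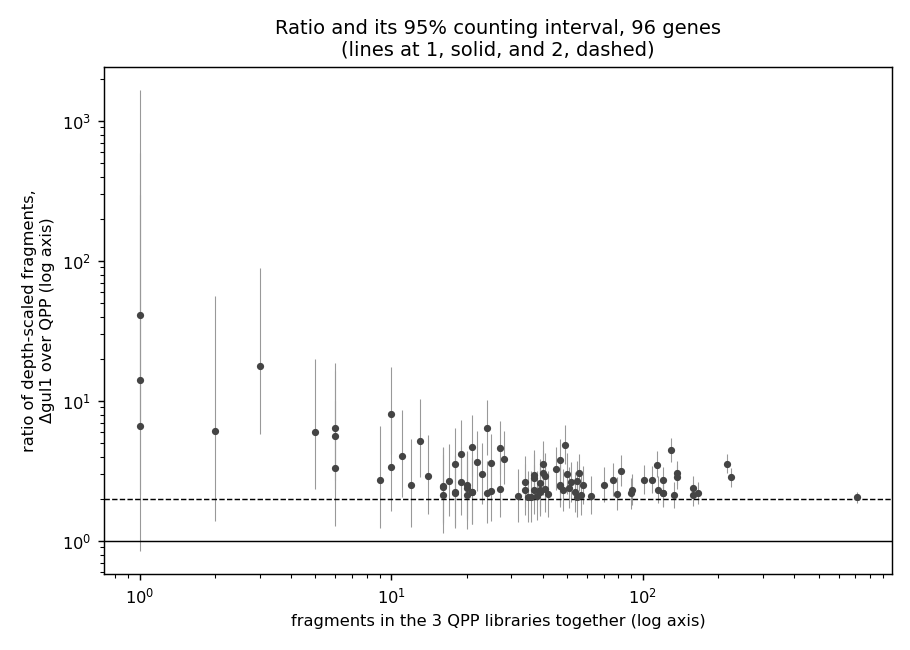
Ratio of depth-scaled fragments in Δ*gul1* over QPP (vertical, log axis) against the fragments in the 3 QPP libraries together (horizontal, log axis), with 95% counting intervals; each point is 1 of the 96 genes and the lines mark ratios of 1 and 2. Genes with fewer QPP fragments have wider intervals and include all of the highest ratios, up to 41.5.

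The best measured genes had moderate ratios. TRIREDRAFT_62633, whose 9450 counted bases make it the longest of the 96, had 482, 566 and 489 fragments in Δ*gul1*, against 234, 307 and 167 in QPP. In levels these were 2.47, 3.39 and 2.68 FPKM in Δ*gul1*, against 1.24, 1.50 and 0.936 FPKM in QPP, and the ratio of depth-scaled fragments was 2.05 with an interval of 1.87 to 2.24. After scaling it no longer met the ratio of 2.3. TRIREDRAFT_64125 was at 4.37, 6.02 and 3.04 FPKM in Δ*gul1*, against 1.27, 1.38 and 0.642 FPKM in QPP. In both strains replicate 3 was its lowest library, and the ratio was 3.66.

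TRIREDRAFT_104180, with 6369 counted bases, was at 1.51, 1.75 and 1.77 FPKM in Δ*gul1*, against 0.267, 0.319 and 0.432 FPKM in QPP. With 614 fragments in Δ*gul1* and 130 in QPP, the ratio of depth-scaled fragments was 4.45 with an interval of 3.68 to 5.42. Among the 5 genes with the most fragments this was the largest such ratio.

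Over the 96 genes, the median coefficient of variation between the 3 cultures was 20.2% in Δ*gul1* and 33.8% in QPP. Counting alone would give medians of 16.8% in Δ*gul1* and 28.3% in QPP at these fragment numbers, so the greater spread in QPP went with its lower counts. In Δ*gul1*, 17 genes varied by at most 10% and 5 by more than 50%. The most even was TRIREDRAFT_110140, at 1.22, 1.23 and 1.21 FPKM in Δ*gul1*, against 0.544, 0.580 and 0.444 FPKM in QPP. The least even with more than 50 fragments was TRIREDRAFT_122998, at 1.16, 4.96 and 2.26 FPKM in Δ*gul1*, against 0.662, 1.10 and 0.632 FPKM in QPP. Both were named after their values were seen. The highest Δ*gul1* library was replicate 1 in 28 genes, replicate 2 in 36 and replicate 3 in 32, so no single culture led. Among the 965 other genes in the same range of Δ*gul1* means, replicate 1 was the highest in 331 genes, replicate 2 in 240 and replicate 3 in 394.

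The gap between the strains was narrow for many genes. The lowest Δ*gul1* library divided by the highest QPP library had a median of 1.78 and ran between 1.04 and 12.6. When any 1 of the 6 libraries was left out, 54 of the 96 genes still met the rule on FPKM as deposited. Of these 54, 51 also met the rule on size-factor scaled values of all 6 libraries. Leaving out a library was not combined with scaling. Those 51 include the 4 annotated genes and the 8 genes with the highest ratios among genes with at least 30 Δ*gul1* fragments. The 34 genes that did not meet the rule after size-factor scaling include TRIREDRAFT_62633. They also include TRIREDRAFT_105222 and TRIREDRAFT_112037, whose scaled ratios of 12.7 and 7.32 rest on fewer than 30 Δ*gul1* fragments each.

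At the edge of the ratio threshold, TRIREDRAFT_2033 (ratio of means as deposited 2.305) and TRIREDRAFT_55719 (2.321) were just inside, and TRIREDRAFT_61278 (2.284) and TRIREDRAFT_59050 (2.269) just outside. At the lower bound on the Δ*gul1* mean, TRIREDRAFT_112037 (0.508 FPKM) and TRIREDRAFT_60557 (0.568 FPKM) were inside, and TRIREDRAFT_66551 (0.485 FPKM) and TRIREDRAFT_67866 (0.480 FPKM) outside. At the upper bound, TRIREDRAFT_112146 (4.99 FPKM) and TRIREDRAFT_67699 (4.84 FPKM) were inside, and TRIREDRAFT_107185 (5.03 FPKM) and TRIREDRAFT_119844 (5.25 FPKM) outside. The thresholds cut through a continuous range. In the same range of means, 43 genes without overlap had a ratio of 2 to 2.3 and 16 met the ratio but overlapped. Without overlap and at the same ratio, 48 genes lay below the range and 166 above it.

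A limma fit over all 9006 genes called 168 (1.87%) higher in Δ*gul1*, where a call needs a log2 fold change over 1 together with p below 0.05 before adjustment. Of the 96, 14 were called, a count from which nothing is read because the same contrast chose the genes. The fitted log2 fold changes ran between 0.32 and 1.64 with a median of 0.71, beside 0.01 for all genes (0.14 with FPKM as deposited). They were taken after adding 1 to the scaled FPKM and so understate the change of genes at these levels. With a pseudocount of 0.1 the median was 1.27, and 87 of the 96 were called beside 289 of all 9006 genes (3.21%), from which again nothing is read.

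The place of the genes in the genome was not used in choosing them. All 96 have an entry in the gene table of the QM6a assembly, to which the reads were mapped, and no member overlaps a neighbouring gene there. The table names no scaffold, so positions are given along the scaffold of each gene. Direct neighbours within the 96 were 4 genes in 2 pairs, where the 37 genes of the mirrored rule with an entry included 6 such genes. TRIREDRAFT_112146 (100174 to 104368) and TRIREDRAFT_112147 (105118 to 106377) lie 749 bp apart. The first was at 4.47, 5.18 and 5.34 FPKM in Δ*gul1*, against 1.25, 1.80 and 1.64 FPKM in QPP, a ratio of 2.87, and the second had the lower levels given above.

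In the other pair, TRIREDRAFT_35137 (1602559 to 1606328) and TRIREDRAFT_55666 (1606431 to 1607438) are only 102 bp apart. TRIREDRAFT_35137 was at 0.812, 0.809 and 0.665 FPKM in Δ*gul1*, against 0.178, 0.346 and 0.302 FPKM in QPP. TRIREDRAFT_55666 was at 0.528, 0.731 and 0.616 FPKM in Δ*gul1*, against 0.248, 0.137 and 0.105 FPKM in QPP. Their levels were similar and their ratios 2.49 and 3.41. Whether fragments crossing such a short gap were counted to the other gene was not tested.

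Allowing 1 gene in between adds 2 more pairs, for 8 genes in all. Between TRIREDRAFT_60557 and TRIREDRAFT_60581 lies TRIREDRAFT_121482, which was far more abundant, at 51.2, 61.9 and 52.0 FPKM in Δ*gul1*, against 31.5, 35.6 and 28.5 FPKM in QPP. Between TRIREDRAFT_110660 and TRIREDRAFT_123431 lies TRIREDRAFT_67290, at 1.37, 1.22 and 0.991 FPKM in Δ*gul1*, against 0.727, 0.814 and 1.06 FPKM in QPP. In neither case was the gene in between called.

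A direct neighbour called higher in Δ*gul1* by limma was found for 9 of the 96 genes (9.38%). For TRIREDRAFT_112147 that neighbour, TRIREDRAFT_112146, was itself among the 96. Counting only called neighbours outside the 96, the numbers were 8 of the 96 genes (8.33%), 32 of the 961 other genes in the same range of means (3.33%) and 284 of all 9116 genes in the table (3.12%). This is a description, with no test. The neighbours of the 96 that were not themselves among them had a median log2 fold change of 0.08, so most stood near the median of all genes. The most abundant of the called neighbours was TRIREDRAFT_111915, 970 bp from TRIREDRAFT_124007. It was at 8412, 7845 and 8756 FPKM in Δ*gul1*, against 2227, 2182 and 1852 FPKM in QPP. TRIREDRAFT_124007 itself was at 3.43, 2.31 and 2.71 FPKM in Δ*gul1*, against 0.789, 1.79 and 0.952 FPKM in QPP. On its other side TRIREDRAFT_69769 lies only 5 bp away and was not called. That gene was at 10.1, 8.04 and 8.94 FPKM in Δ*gul1*, against 6.18, 6.20 and 7.04 FPKM in QPP. The part of fragments from either neighbour in the low levels of TRIREDRAFT_124007 was not tested.

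Among the others, TRIREDRAFT_60638, 327 bp from TRIREDRAFT_73344, was at 12.7, 6.62 and 9.55 FPKM in Δ*gul1*, against 2.45, 2.39 and 3.03 FPKM in QPP. TRIREDRAFT_109031, 558 bp from TRIREDRAFT_109030, was at 18.6, 19.2 and 16.1 FPKM in Δ*gul1*, against 4.80, 7.26 and 5.24 FPKM in QPP. TRIREDRAFT_109030 had the same order of strains at a lower level, with 4.26, 4.28 and 2.93 FPKM in Δ*gul1*, against 0.628, 0.581 and 0.999 FPKM in QPP. TRIREDRAFT_44628, 212 bp from TRIREDRAFT_2200, and TRIREDRAFT_66766, 103 bp from TRIREDRAFT_123278, were the closest of the called neighbours that are not among the 96. Each called neighbour was more abundant in Δ*gul1* than the gene of the 96 beside it. The rule held the Δ*gul1* means of the 96 below 5 FPKM, so this order was largely set by the choice.

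Gene structure was not used by the rule either. The length over which fragments were counted equalled the whole length of the gene for 31 of the 96 (32.3%), against 197 of 961 other genes in the same range of means (20.5%) and 1591 of 8769 genes overall (18.1%). Such genes have no uncounted part, which is how a gene annotated without an intron appears here. The median counted length was 1112.5 bases, against 1231 bases for the other genes in the range and 1331 bases overall. Below 600 counted bases were 16 of the 96 (16.7%), 101 of the others in the range (10.5%) and 972 overall (11.1%). These shares were not tested, and short genes have fewer fragments at a given FPKM, so that their ratios scatter more.

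**Figure D5:**
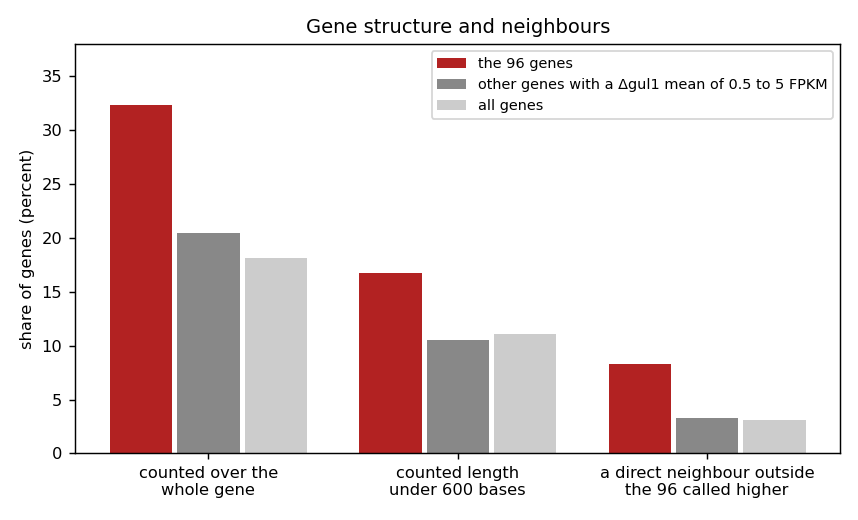
Share of genes (percent, from 0) counted over their whole length, with a counted length under 600 bases, and with a direct neighbour outside the 96 called higher in Δ*gul1* by limma, for the 96 genes (red), the other genes with a Δ*gul1* mean of 0.5 to 5 FPKM (dark grey) and all genes (light grey). The 96 genes have the tallest bar in each group, at 32.3%, 16.7% and 8.33%.

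Near the ends of runs of coordinates in the gene table, within 10 genes of an end, lay 15 of the 96 genes (15.6%), which is close to the 15.7% of the other genes in the range and above the 11.0% of all genes. A run ends where the start positions in the table fall back to a low value, which was taken as the end of a scaffold. The share of such positions thus differed little between the 96 genes and other genes at this level of expression.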

How the data were processed

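Transcript levels were measured by paired-end RNA-seq in 3 libraries of Δ*gul1* and 3 of QPP. The authors used HISAT2 to map reads on the QM6a assembly and HTSeq to count fragments on genes, and deposited FPKM, which are not scaled between libraries. Cutadapt is named in the processing notes. Whether counting used the strand is not given in the sources used here. The deposited table holds 9113 genes, of which 9006 were above 0 in at least 1 library.

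The 96 genes were chosen on FPKM as deposited. The genes and the gene lists were chosen with earlier results of these data known. Fragments were recovered from the FPKM steps, to within 0.002 of a whole number, for 8769 of 8769 genes above 0 with a locus tag, 8323 of them with 1 possible length. For the others the longest length was taken, so fragments are an upper bound (3 of the 96).

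Size factors (median of ratios) were applied to the FPKM, log2 was taken with a pseudocount of 1, and limma 3.58.1 (R 4.3.3; lmFit, eBayes with trend, strain as the only term) was run on all genes, which was tested on simulated libraries. The authors used DESeq on counts, and limma took its place because FPKM were deposited. Adjusted p-values follow Benjamini and Hochberg, over all genes. Means and SDs are of deposited FPKM. Genes named in the text were the 4 with an annotation, the 8 with the highest scaled ratio and at least 30 Δ*gul1* fragments, the 5 with the most fragments, adjacent genes, and the 2 nearest genes on either side of each threshold. TRIREDRAFT_105222, TRIREDRAFT_111252, TRIREDRAFT_110140, TRIREDRAFT_122998, TRIREDRAFT_69769, and the genes beside called or intervening neighbours were added after their values were seen. Positions come from the gene table of the assembly. Python 3.11.15, numpy 2.4.6, pandas 2.3.3, scipy 1.17.1 and matplotlib 3.10.9 were used. Alternatives covered scaling, pseudocount, filter, the ratio, left-out libraries, trend, the adjusted p and a block on the replicate number.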

Additional observations from a re-analysis of the deposited data

How the results depend on the processing

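The number of genes meeting the rule was 96 as deposited, 63 after size-factor scaling, 60 after upper quartile scaling (58 of them among the 96) and 46 at a ratio of at least 3. It was 139 at a ratio of at least 2, 91 with at least 30 Δ*gul1* fragments, and 102 to 116 with 1 library left out, of which 81 to 89 were among the 96. With a pseudocount of 0.1, limma called 87 of the 96 genes and 289 of all genes, against 14 and 168 with a pseudocount of 1. With FPKM as deposited the calls were 21 of the 96 and 237 of all genes. Leaving out 1 library gave 13 to 18 of the 96 and 163 to 181 of all genes. The median log2 fold change of the 96 was 0.71, and it was 0.79 with FPKM as deposited, 0.84 over the 53 genes averaging 1 FPKM or more, 1.27 with a pseudocount of 0.1 and 0.67 to 0.72 with 1 library left out. Adjacent genes numbered 4, or 8 with 1 gene allowed between. A pseudocount of 0.1 moved the fitted change of 22 of 23 named genes of the 96 by more than their spread. Their sign was fixed by the rule and says nothing of stability.

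The replicate numbers gave no clear pairing of the libraries. The check cannot exclude one, because deviations of cultures from their own strain mean are tied to each other. Deviations from the strain means correlated at −0.09, 0.18 and 0.37 for the same number over 8153 genes, and at −0.44 to 0.33 for different numbers. With a replicate block the fit called 14 of the 96 and 169 of all genes. Depth limits the genes with 3 or fewer QPP fragments, whose ratios have wide intervals.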
